A study of Rattus norvegicus with 12 samples.

Results

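The miR-125 family was examined in cultured cortical neurons from Sprague Dawley rats, as the mature strands whose names begin with rno-miR-125a or rno-miR-125b. The rule found 5 names among the 685 miRNA names of the tables (805 small RNA names in all): rno-miR-125a-5p, rno-miR-125a-3p, rno-miR-125b-5p, rno-miR-125b-1-3p and rno-miR-125b-2-3p. The species prefix rno is mostly left out below. All 5 passed the filter on low counts, as did 628 miRNA names in total. Members were selected on their names, but the family itself was chosen by measured values, the higher levels of both 5p strands in the libraries with an shRNA against Stau2. Its values in comparisons with those libraries are therefore a description: counts of calls are printed there beside the share over all miRNAs, and no p-value is given or read as support.

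Neurons were dissociated from cortices of embryonic day 17, plated at 100000 cells per square centimetre and given lentivirus on day 10 in culture, and their RNA was taken on day 14. The 3 groups of 4 libraries carried a non-targeting shRNA (shNTC, the reference), an shRNA against Stau2 (shStau2) or an shRNA against Pum2 (shPum2), the last meant as a further control for what any active shRNA changes. Staufen2, the Stau2 product, is a neuronal protein that recognises double-stranded stretches of RNA, and Pumilio 2, the Pum2 product, recognises a short motif in single-stranded mRNA. The labels name a single shRNA treatment per target, call the replicates biological, and say nothing of the animals behind each, so p-values measure the spread between these libraries. Stau2 and Pum2 mRNA were not analysed here, and the depletion was therefore not checked.

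A mature miRNA is a short RNA that guides an Argonaute protein to mRNAs, mainly through pairing of its seed, bases 2 to 8. It is cut from a hairpin whose arms give a 5p and a 3p strand, of which usually a single strand is retained as the guide. The family descends from the same ancestor as lin-4 of worms, a regulator of developmental timing that represses lin-14 and lin-28. In mammals the genes lie in clusters with relatives of let-7 and miR-99 or miR-100, and in neurons miR-125a and miR-125b have been studied at dendrites and synapses as regulators of postsynaptic proteins.

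The mature strands are shown first, because the seed divides the family and because the lengths of shared sequence bear on how far reads can be told apart. Sequences are from RefSeq with its assembly GRCr8, written 5′ to 3′ in lower case with the seed in capitals, and all 5 members had an entry there.
miR-125a-5p: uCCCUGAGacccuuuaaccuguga
miR-125b-5p: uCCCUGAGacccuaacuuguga
miR-351-5p: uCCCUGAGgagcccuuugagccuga
miR-125a-3p: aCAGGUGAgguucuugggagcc
miR-125b-1-3p: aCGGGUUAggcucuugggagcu
miR-125b-2-3p: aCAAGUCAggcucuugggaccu
Both 5p strands had the same seed and shared their first 13 bases, then differed up to a common end of 5 bases. Of the 613 miRNA names of the tables that matched a RefSeq sequence, only miR-351-5p also carried this seed outside the family. It shared 8 bases from the 5′ end with miR-125a-5p and with miR-125b-5p. Each of the 3 seeds of the 3p strands was found in no other matched name.

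Where the strands sit in their hairpins is shown for Mir125a and Mir125b1, with the mature strands in capitals.
Mir125a: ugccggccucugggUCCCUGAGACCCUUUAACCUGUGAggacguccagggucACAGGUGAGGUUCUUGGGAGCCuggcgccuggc
Mir125b1: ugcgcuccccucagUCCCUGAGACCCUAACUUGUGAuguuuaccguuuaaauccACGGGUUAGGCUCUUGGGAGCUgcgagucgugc
In GRCr8 the Mir125a hairpin lies at chr1:67350675-67350759 on the plus strand, and the RefSeq gene Spaca6 spans it. Mir125b1 lies at chr8:50850036-50850122 on the plus strand, within Mir100hgl and Lnc215. From Mir125b2, on the plus strand within LOC103693508, come miR-125b-5p at chr11:29732588-29732609 and miR-125b-2-3p at chr11:29732627-29732648. The sequence of miR-125b-5p also stands in the Mir125b1 hairpin from base 15 to base 36. Its counts therefore pool 2 loci, whereas each miR-125b 3p strand marks a single locus.

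Levels are given as counts per 1000000 miRNA counts (CPM), with library sizes scaled by edgeR's trimmed mean of M-values (TMM). They are shares of a library, not amounts per cell. The guide rno-miR-125b-5p was the second most abundant of all miRNAs. In shNTC it stood at 128165, 110736, 136482 and 123671 CPM in replicates 1 to 4, in shStau2 at 145042, 138580, 156222 and 151377 CPM, and in shPum2 at 126084, 128813, 135459 and 113056 CPM. All shStau2 libraries were above all shNTC and all shPum2 libraries, while the ranges of shNTC and shPum2 overlapped. The shNTC mean was 124763 ± 10753 CPM, the shStau2 mean 147805 ± 7667 and the shPum2 mean 125853 ± 9396 (SD, n = 4).

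Its close relative rno-miR-125a-5p ranked as number 10 by level. It stood at 19649, 16537, 19574 and 18614 CPM in shNTC, at 22204, 22776, 23037 and 24928 CPM in shStau2, and at 18789, 19469, 18706 and 20189 CPM in shPum2. Again every shStau2 library lay above every library of the other groups, which overlapped. The shNTC mean was 18594 ± 1449.7 CPM, the shPum2 mean 19288 ± 691 and the shStau2 mean 23236 ± 1181 (SD, n = 4).

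The 3p strands were minor products. From the Mir125b1 locus, rno-miR-125b-1-3p stood at 369, 291, 339 and 253 CPM in shNTC, at 318, 302, 335 and 328 CPM in shStau2, and at 311, 316, 281 and 350 CPM in shPum2. Both the lowest and the highest of these values belonged to shNTC, so the groups overlapped throughout. From the Mir125b2 locus, rno-miR-125b-2-3p stood at 234, 181, 194 and 187 CPM in shNTC, at 214, 207, 219 and 224 CPM in shStau2, and at 199, 209, 159 and 208 CPM in shPum2. Here shNTC replicate 1 was the highest library and shPum2 replicate 3 the lowest, and the groups overlapped as well.

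The strand opposite miR-125a-5p was the least abundant. For rno-miR-125a-3p the values were 101, 92.2, 92.5 and 88.3 CPM in shNTC, 114, 126, 99.5 and 121 CPM in shStau2, and 90.4, 117, 92.8 and 112 CPM in shPum2. Only shStau2 replicate 3 lay within the range of shNTC, the other 3 shStau2 libraries being above it, and shPum2 overlapped both ranges. The ranges over all 12 libraries did not overlap between any neighbours in the order miR-125b-5p, miR-125a-5p, miR-125b-1-3p, miR-125b-2-3p and miR-125a-3p.

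**Figure D1:**
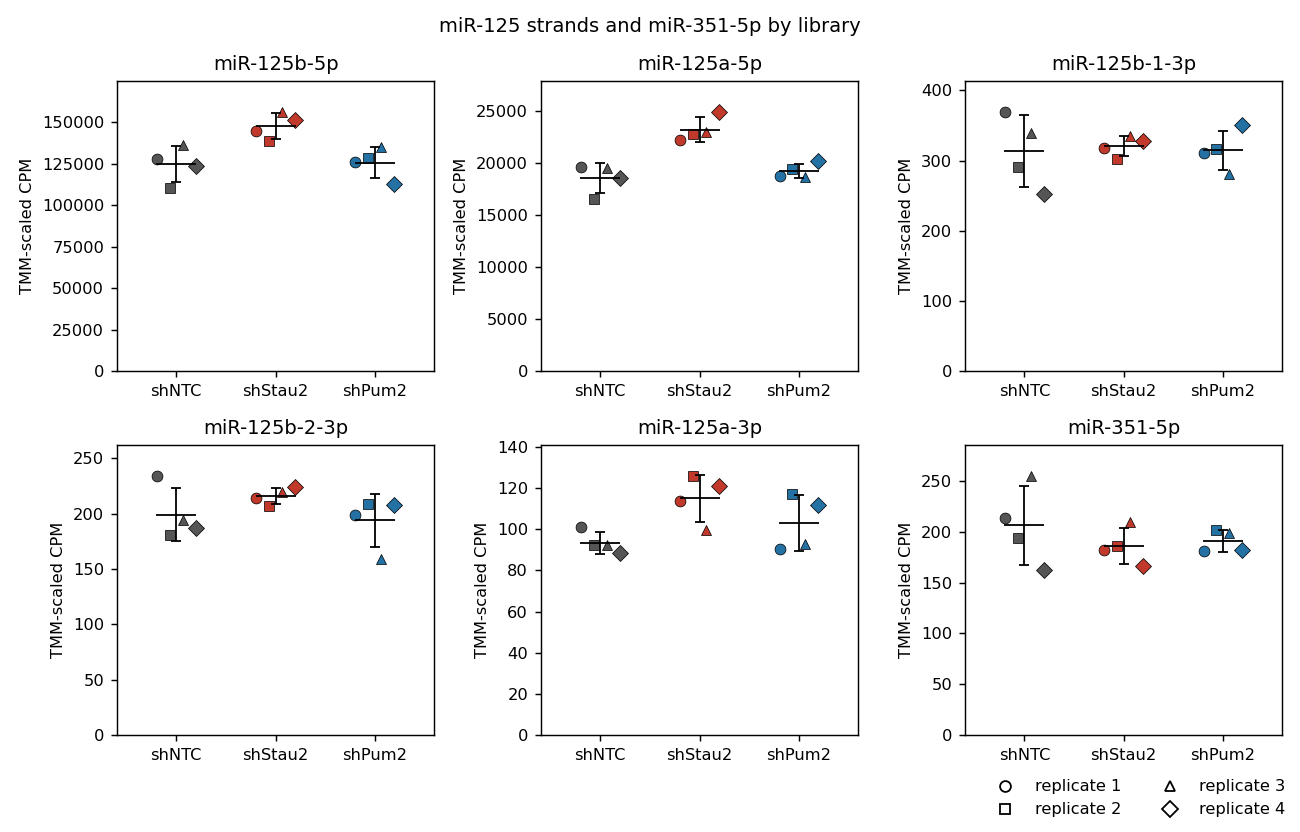
TMM-scaled CPM (vertical axes, from 0) of the 5 miR-125 strands and of miR-351-5p in each library by group, with marker shapes for replicate numbers and with mean ± SD (n = 4) as bars. The shStau2 libraries of miR-125b-5p lie between 138580 and 156222 CPM and those of miR-125a-5p between 22204 and 24928 CPM, above every other library of those strands, whereas the groups overlap in the other panels.

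The family as a whole made up between 13.7 and 15.1% of all miRNA counts in the shNTC libraries, between 16.4 and 17.2% in shStau2 and between 14.1 and 15.2% in shPum2. Within the family miR-125b-5p made up 84.4 to 87.6% of the counts, miR-125a-5p 12.1 to 15.1%, and the 3p strands together 0.345 to 0.50%. Counts were 485957 to 723970 per library for miR-125b-5p and 73141 to 106761 for miR-125a-5p, so the counting error of a single value was at most 0.143% and 0.370%. For miR-125a-3p, with 347 to 542 counts, it was 4.30 to 5.37%, close to its spread in shNTC (coefficient of variation 5.77%). Its spread was larger than the counting error in shStau2 (9.92%) and in shPum2 (12.9%). The sources used here do not say whether reads or molecules were counted, and the counting errors given leave out other sources of spread.

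Across the series, totals per library lay between 3836349 and 5415763 counts. The culture carried the neuronal markers: all 8 miRNAs of that list were above 100 CPM in every library, among them miR-124-3p at 4063 to 5647 CPM. Their summed level overlapped between all groups (279686 to 329622 CPM in shNTC, 297878 to 338888 in shStau2 and 286336 to 345177 in shPum2). Most of that sum came from miR-9a-5p (168807 to 221449 CPM) and miR-128-3p (79156 to 102053 CPM), so it says little of the rest of the list. Astrocyte-linked miRNAs were present too, with all 5 detected: their sum was 6806 to 9541 CPM in shNTC, 4670 to 6129 in shStau2 and 5491 to 7582 in shPum2, so that shStau2 lay below shNTC without overlap. With the replicate number as a block in edgeR's test 4 of these 5 fell in shStau2 against shNTC, 1 fell in shPum2 against shNTC and 0 were called in shStau2 against shPum2, where 6.21%, 0.159% and 3.98% of all miRNAs were called in either direction. Without the block 0 were called. The blood or microglia list (6 of 7 names in the tables) summed to 136 to 196, 98.8 to 140 and 143 to 202 CPM in the same order, the vessel or mesenchyme list (6 names) to 646 to 963, 558 to 801 and 621 to 1067 CPM, and the oligodendrocyte list (3 names) to 219 to 336, 252 to 278 and 233 to 406 CPM. With the block 1 of the 4 blood or microglia names tested fell in shStau2 against shNTC and 2 fell against shPum2, 1 of the 6 vessel or mesenchyme names fell in shStau2 against shNTC, and 0 names of the neuronal and oligodendrocyte lists were called. In the blood or microglia list 1 name was at 0 in all shStau2 libraries. In bulk samples fewer cells of a type and less RNA per cell cannot be told apart. The part of these markers in the levels of the miR-125 strands was not tested.

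The comparison of shStau2 with shNTC asks what depletion of Stau2 changed. The 5p strands stood higher in shStau2: by 0.24 on the log2 scale for miR-125b-5p (SE 0.08, 1.18-fold) and by 0.32 for miR-125a-5p (SE 0.07, 1.25-fold), each in 4 of 4 same-number library pairs. Also higher in 4 of 4 pairs was miR-125a-3p, by 0.30 (SE 0.12). The 3p strands of miR-125b were nearer to 0, with 0.12 (SE 0.11) for miR-125b-2-3p, higher in 3 of 4 pairs, and 0.03 (SE 0.12) for miR-125b-1-3p, higher in 2 of 4. The median over the 5 members was 0.24, and over all 628 miRNAs tested it was 0.00. How many of all miRNAs were higher in 4 of 4 pairs was not counted, so nothing is read from pair counts here or below.

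In edgeR's quasi-likelihood test without a block, at an adjusted p of 0.05, 0 of the 5 members were called in shStau2 against shNTC, where 0.318% of all miRNAs were called (2 of 628; 71 had an unadjusted p under 0.05). With the replicate number as a block 2 members were called, both 5p strands, both higher, where 6.21% of all miRNAs were called (39 of 628). Of those 39 calls 15 were higher and 24 lower, a split that became 7 and 32 with scaling to library totals and 21 and 17 with upper-quartile factors. The numbers pair the libraries by the check given with the methods. Without replicate number 4 the block called 0 members and 5 miRNAs, against 2 members without number 1, 2 or 3. All 4 shStau2 libraries lay above all 4 shNTC libraries for 2 members, miR-125a-5p and miR-125b-5p, and for 4.3% of all miRNAs (27 of 628). Since these contrasts were known when the family was put forward, nothing is read from the counts.

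The comparison of shStau2 with shPum2 sets the same shStau2 libraries against the other active shRNA, so it shares them with the comparison above. Here miR-125b-5p was higher by 0.23 (SE 0.08, 1.17-fold) and miR-125a-5p by 0.27 (SE 0.07, 1.20-fold) on the log2 scale, each in 4 of 4 pairs. Differences of the other strands were 0.16 (SE 0.12) for miR-125a-3p, again in 4 of 4 pairs, 0.16 (SE 0.11) for miR-125b-2-3p and 0.03 (SE 0.12) for miR-125b-1-3p. The median over the members was 0.16, beside 0.01 over all miRNAs tested.

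Without the block, 0 members were called in shStau2 against shPum2, where 0.478% of all miRNAs were (3 of 628; 59 at an unadjusted p under 0.05). With the block both 5p strands were called higher, where 3.98% of all miRNAs were called (25 of 628, 10 higher and 15 lower, or 5 and 21 with library totals and 26 and 14 with upper-quartile factors). These 2 member calls were kept without replicate number 2 and fell to 0 without number 1, 3 or 4. All 4 shStau2 libraries lay above all 4 shPum2 libraries for the same 2 members and for 2.23% of all miRNAs (14 of 628). These counts, too, rest on the levels by which the family was chosen, and nothing is read from them.

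The comparison of shPum2 with shNTC asks what another active shRNA changed, and it did not lead to the choice of the family. None of the members passed edgeR's quasi-likelihood test: adjusted p was 0.982 for miR-125b-5p (log2 fold change 0.01, SE 0.08), miR-125a-5p (0.05, SE 0.07), miR-125a-3p (0.14, SE 0.12) and miR-125b-2-3p (-0.04, SE 0.11), and 0.990 for miR-125b-1-3p (0.01, SE 0.12). Of all miRNAs 0% were called (0 of 628; 9 at an unadjusted p under 0.05, and 0 with DESeq2). With the block 0.159% were called (1 of 628), and again 0 members, with adjusted p between 0.777 and 0.973. The signs of miR-125b-5p and miR-125b-1-3p depended on the scaling, both turning to -0.01 with upper-quartile factors. No member had all 4 shPum2 libraries above all 4 shNTC libraries, an ordering shown by 0.318% of all miRNAs (2 of 628).

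**Figure D2:**
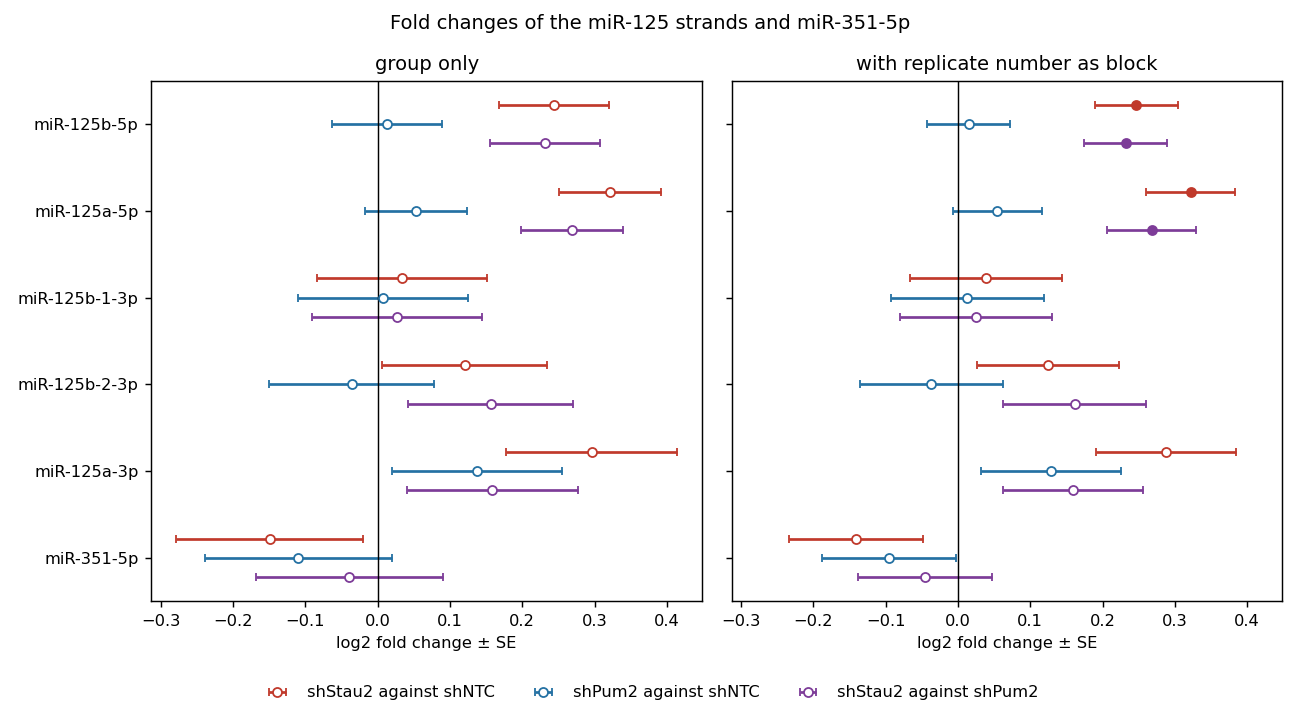
Log2 fold changes ± SE (horizontal axes) of the 5 miR-125 strands and miR-351-5p in the 3 comparisons, from the fit by group (left) and with the replicate number as a block (right), where filled points have an adjusted p under 0.05 (in the comparisons with shStau2 a description only). Both 5p strands lie between 0.23 and 0.32 in the comparisons with shStau2 and between 0.01 and 0.05 in shPum2 against shNTC. The signs of miR-125b-5p in shPum2 against shNTC and of miR-125b-1-3p in all 3 comparisons flipped under another scaling.

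Their level sets the 5p strands apart from most miRNAs, so their differences were also set beside those of other abundant miRNAs, a group chosen after the values were seen. In the comparisons with shStau2 the order reuses the values by which the family was chosen, and nothing is read from it. There were 15 miRNAs with a mean of at least 10000 CPM. In shStau2 against shNTC the log2 fold changes of the other 13 lay between -0.20 (let-7i-5p) and 0.17 (miR-26a-5p), below both 5p strands. In shStau2 against shPum2 they lay between -0.21 (let-7i-5p) and 0.24 (miR-7a-5p), which placed miR-125a-5p first and miR-125b-5p the third. In shPum2 against shNTC they lay between -0.10 (miR-9a-3p) and 0.07 (miR-16-5p), a range that held both 5p strands. Less abundant miRNAs lay beyond the range of those 13 in shStau2 against shNTC, in both directions. Among them were miR-3588 at 0.23 (mean 4581 CPM), miR-3099 at 0.32 (2081 CPM), miR-298-5p at 0.36 (1315 CPM) and miR-29a-3p at -0.68 (5995 CPM). When the scaling was computed without the family, the difference of miR-125b-5p from shNTC in shStau2 was again 0.24 and that of miR-125a-5p 0.32.

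**Figure D3:**
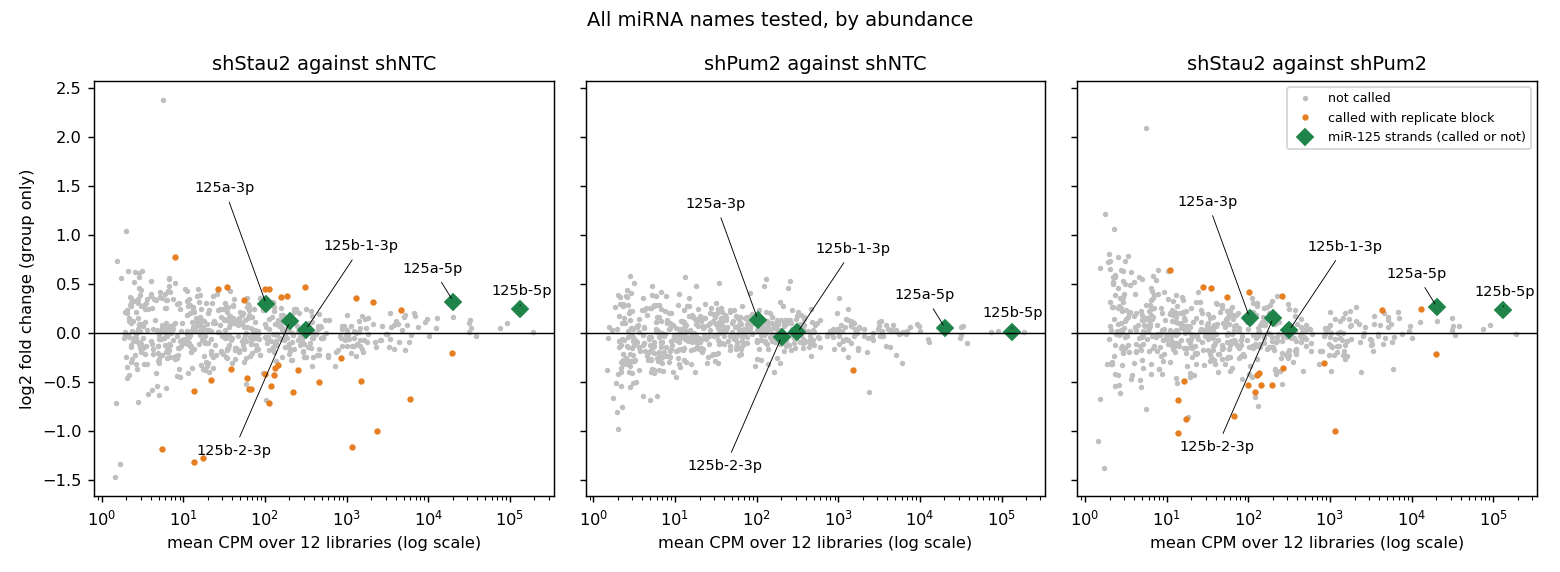
Log2 fold change from the fit by group (vertical axis) against mean CPM over 12 libraries (horizontal log axis) for the 628 miRNAs tested, a panel per comparison, with the miR-125 strands as diamonds and other miRNAs called with the replicate block in orange. At the abundant end both 5p strands stand above the other 13 miRNAs over 10000 CPM in shStau2 against shNTC, and within their range in shPum2 against shNTC. The order in shStau2 against shNTC rests on the values that led to the choice of the family and is a description. Less abundant miRNAs reached larger differences there.

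Ratios between strands of a library do not depend on its scaling. The ratio of miR-125b-5p to miR-125a-5p counts was 6.52 to 6.97 in shNTC, 6.07 to 6.78 in shStau2 and 5.6 to 7.24 in shPum2, so the groups overlapped and shPum2 spanned the others. The ratio of miR-125a-5p to miR-125a-3p was 179 to 211 in shNTC, 181 to 231 in shStau2 and 167 to 208 in shPum2, with overlap between all groups. The mean levels of both strands of the miR-125a hairpin were higher in shStau2 than in shNTC, though the groups overlapped for miR-125a-3p. The level of miR-125a-5p there led to the choice of the family, so this is a description and was not tested. Between shStau2 and shNTC the mean log2 ratio of these strands differed by 0.03. That difference was -0.033 to 0.085 over the alternatives tried. Against shPum2 the difference in log2 ratio was 0.11, the 5p strand being the further apart.

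For miR-125b the 5p strand was set against the sum of both 3p strands. That ratio was 213, 235, 256 and 281 in shNTC, 273, 272, 282 and 274 in shStau2, and 247, 245, 307 and 203 in shPum2. The shStau2 libraries were close together, all inside the range of shPum2 and 3 of 4 inside that of shNTC. The mean log2 ratio exceeded that of shNTC by 0.17 and that of shPum2 by 0.15, in 3 of 4 pairs each. Between the loci, the ratio of miR-125b-2-3p to miR-125b-1-3p was 0.572 to 0.738 in shNTC, 0.655 to 0.686 in shStau2 and 0.567 to 0.662 in shPum2. The strand from Mir125b1 was thus the more abundant of the pair in 12 of 12 libraries.

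In shPum2 against shNTC, where the ratios could be tested, 0 of 4 differed by the two-sided exact permutation test over libraries. The exact p was 0.771 for miR-125b-5p to miR-125a-5p (difference -0.04 in log2), 0.429 for miR-125a-5p to miR-125a-3p (-0.08), 0.886 for miR-125b-5p to its 3p strands (0.02) and 0.629 for miR-125b-2-3p to miR-125b-1-3p (-0.05). Adjusted over the 4 ratios, the exact permutation p was 0.886 for each, and 4 against 4 libraries allow no p below 0.0286. The permutation did not keep the same-number pairs. With signs flipped within pairs instead, 4 pairs allow no exact p below 0.125.

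**Figure D4:**
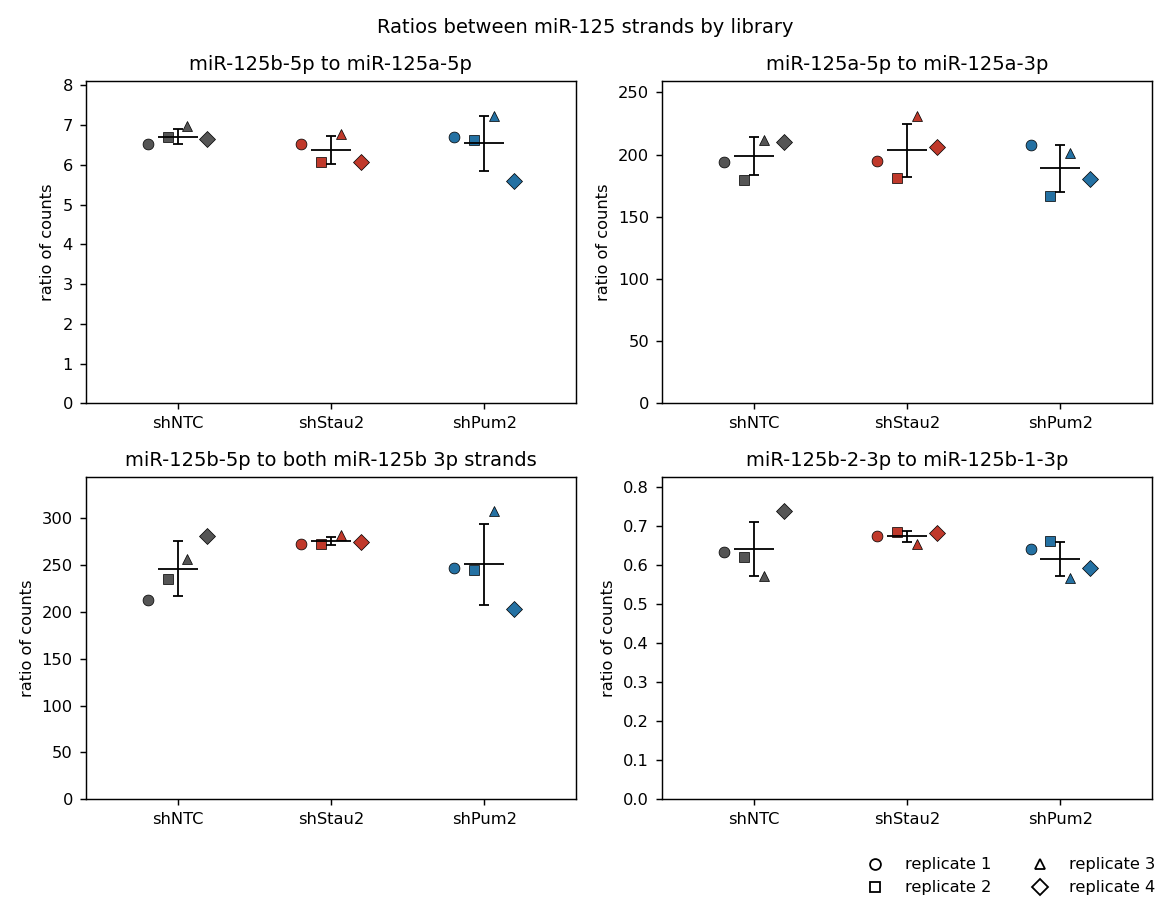
Ratios of counts between miR-125 strands (vertical axes, from 0) in each library by group, with marker shapes for replicate numbers and mean ± SD (n = 4) as bars. The shStau2 libraries lie between 272 and 282 for miR-125b-5p against its 3p strands, where shNTC spans 213 to 281 and shPum2 203 to 307.

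The miRNA that shares the seed but not the locus, miR-351-5p from the X chromosome, was much rarer. It stood at 214, 194, 255 and 162 CPM in shNTC, at 182, 186, 210 and 166 CPM in shStau2, and at 181, 202, 199 and 182 CPM in shPum2. No group was set apart, and its log2 difference was -0.15 (SE 0.13) in shStau2 against shNTC, -0.04 (SE 0.13) in shStau2 against shPum2 and -0.11 (SE 0.13) in shPum2 against shNTC. It was called in none of the comparisons, with or without the block (adjusted p from edgeR 0.398 to 0.982). Whether it differed from the miR-125 5p strands in response was not tested.

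Each miR-125 gene has neighbours in its cluster. In GRCr8, Mir125a lies beside Mirlet7e and Mir99b, Mir125b1 beside Mirlet7a-2 and Mir100, and Mir125b2 beside Mirlet7c1 and Mir99a, in each case with no gene between it and the let-7 gene. Let-7 is the other classic timing miRNA of worms, and miR-99 and miR-100 belong to a further old family. All 12 strands of these let-7, miR-99 and miR-100 neighbours were tested, and 0 were called in any comparison, higher or lower, with or without the block. They leave out miR-3596c and miR-3596a, whose genes lie between Mir125a and Mir99b and between Mir125b1 and Mir100. Neither miR-3596c nor miR-3596a was called in any comparison, with or without the block. Of all miRNAs 0.318%, 0% and 0.478% were called without the block in shStau2 against shNTC, shPum2 against shNTC and shStau2 against shPum2, and 6.21%, 0.159% and 3.98% with it, so a count of 0 among 12 is near the background. Of the 12, 6 stood above 0 in shStau2 against shNTC (median log2 fold change -0.01), 9 in shStau2 against shPum2 (median 0.05) and 4 in shPum2 against shNTC (median -0.03). The mature let-7a-5p and let-7c-5p come from further loci as well, and members of the let-7, miR-99 and miR-100 families are near-identical in sequence, so their separate values are uncertain to the extent that reads were exchanged.

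At the Mir125a locus the most abundant neighbours were let-7e-5p and miR-99b-5p. For miR-99b-5p the levels were 3571, 2943, 3478 and 3016 CPM in shNTC, 3791, 3706, 3506 and 3977 CPM in shStau2, and 3261, 3662, 2979 and 3340 CPM in shPum2. It was higher in shStau2 than in shNTC in 4 of 4 pairs by 0.20 on the log2 scale (SE 0.09), though shStau2 replicate 3 lay within the range of shNTC, and the adjusted p from edgeR was 0.354. The difference was 0.12 (SE 0.08) for let-7e-5p, 0.06 (SE 0.17) for let-7e-3p and -0.06 (SE 0.09) for miR-99b-3p, the partner strand of miR-99b-5p.

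At the miR-125b loci, for miR-100-5p the log2 difference from shNTC was -0.24 (SE 0.14) in shStau2 and -0.25 (SE 0.14) in shPum2, at 1474 ± 298, 1252 ± 134 and 1242 ± 171 CPM in the shNTC, shStau2 and shPum2 libraries (SD, n = 4). For miR-99a-5p it was -0.17 (SE 0.14) and -0.23 (SE 0.14), at 5627 ± 1003, 5009 ± 732 and 4807 ± 649 CPM. Both miRNAs were lower in shPum2 than in shNTC in 4 of 4 same-number pairs and lower in shStau2 in 3 of 4. With the block the difference of shPum2 from shNTC was -0.24 (SE 0.08) for miR-100-5p and -0.22 (SE 0.07) for miR-99a-5p, and edgeR's adjusted p was 0.417 for both. Both groups shared the shNTC libraries, and replicate 4 was the lowest shNTC library for both miRNAs. The let-7 strands let-7a-5p and let-7c-5p differed from shNTC in shStau2 by 0.11 (SE 0.07) and 0.05 (SE 0.08). All 4 shStau2 libraries of let-7a-5p lay above all 4 of shPum2, by 0.16 (SE 0.07), an ordering shown by 2.23% of all miRNAs (14 of 628). Its adjusted p from edgeR there was 0.524, and 0.176 with the block. Whether members and neighbours differed in response was not tested.

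**Figure D5:**
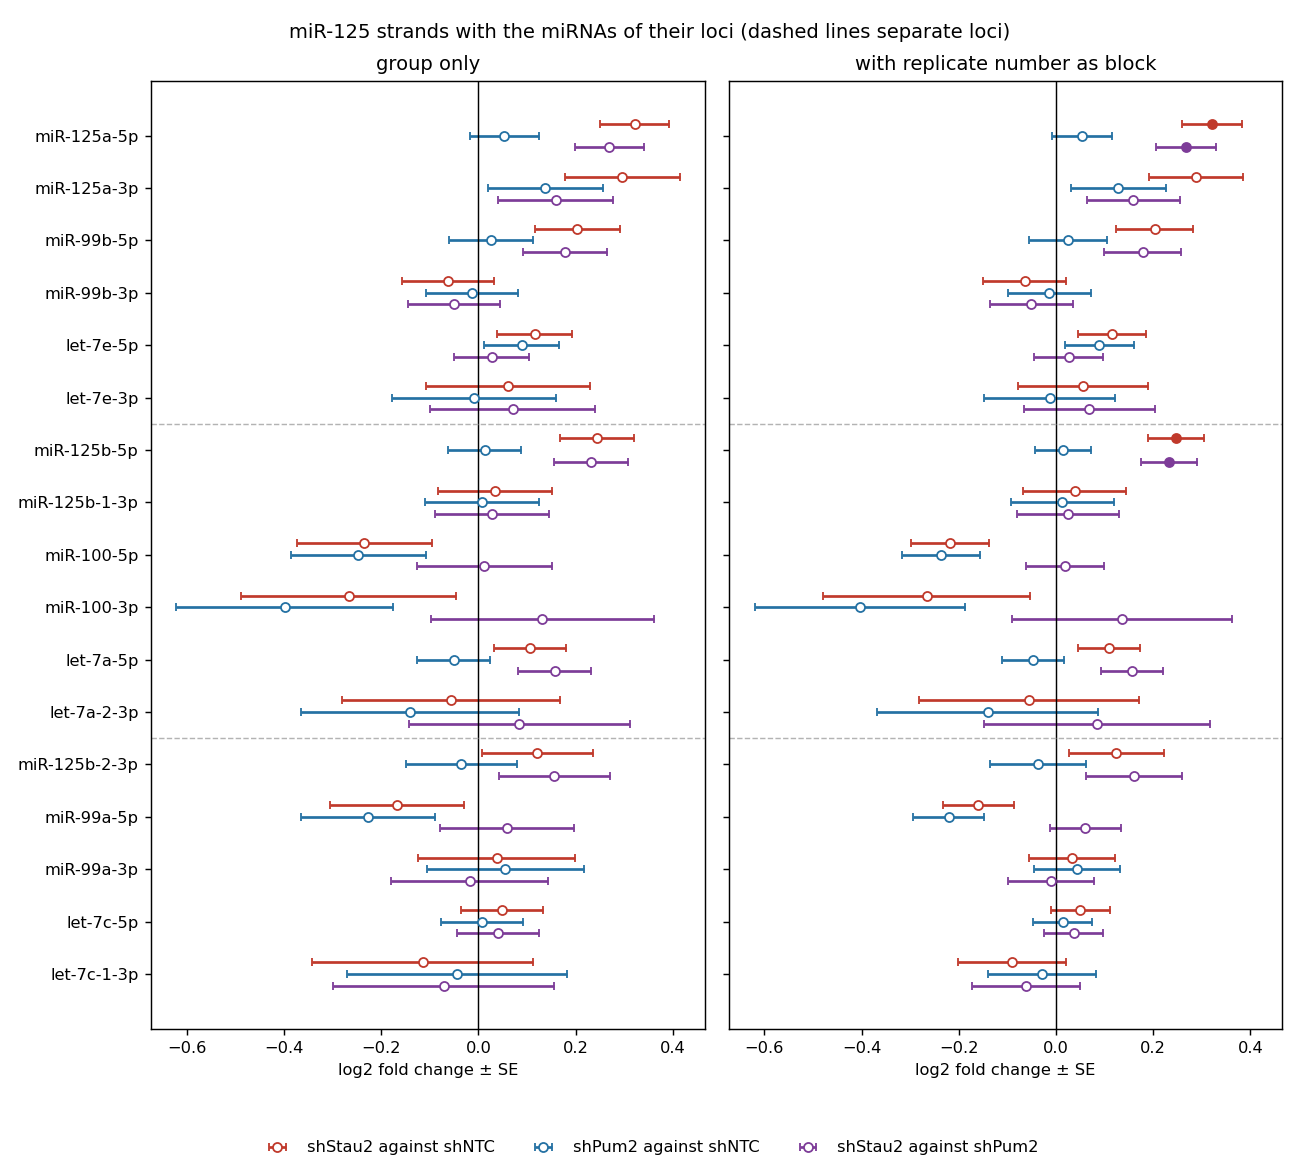
Log2 fold changes ± SE (horizontal axes) of the miR-125 strands and of the 12 let-7, miR-99 and miR-100 strands from the same loci in the 3 comparisons. Fits are without (left) and with (right) the replicate block, and filled points have an adjusted p under 0.05. Rows run from the Mir125a locus at the top to Mir125b1 and Mir125b2, with miR-125b-5p, which both lower loci encode, placed at Mir125b1. The filled points of miR-125a-5p and miR-125b-5p are in the comparisons that led to the choice of the family and are a description, and miR-100-5p and miR-99a-5p lie between -0.25 and -0.16 in both comparisons with shNTC.

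Libraries also varied within groups. After subtraction of group means, the 3p strands of the 2 miR-125b loci varied together over the 12 libraries (Pearson r = 0.76 on log2 CPM), whereas miR-125b-5p had r = 0.13 with miR-125b-1-3p and -0.02 with miR-125b-2-3p, and 0.42 with miR-125a-5p. Between miR-125a-5p and miR-125a-3p r was 0.38. Among 226 miRNAs outside the family with a mean of at least 100 CPM, the pattern of miR-125a-5p was most like those of miR-532-3p (r = 0.88), miR-382-5p (0.87) and miR-99b-3p (0.85), the last from its own locus. For miR-125b-5p they were miR-3588 (0.93), miR-15b-5p (0.90) and miR-30c-5p (0.89). The full sequence of miR-3588 was not compared with that of miR-125b-5p, and whether they share a locus or reads was not tested. In shStau2 against shNTC, miR-532-3p, miR-382-5p and miR-99b-3p stood at log2 fold changes of 0.45, 0.04 and -0.06. There miR-3588, miR-15b-5p and miR-30c-5p stood at 0.23, 0.20 and 0.08. These values are descriptions over 12 libraries that share depth, scaling and, by number, their pairing.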

How the data were processed

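The authors deposited a table of whole-number counts per small RNA name for each of 12 libraries, not normalised. Per the labels' protocols, libraries came from a small RNA kit with unique molecular identifiers, made from batch-isolated RNA with an integrity number of 9.5. Per the submitters' processing notes, reads were handled with the rat build Rnor_6.0. Aligner, counter and unit counted (reads or molecules) are not given in the sources used here. Reads of miR-125a-5p and miR-125b-5p, which share 13 bases, could be exchanged where they end early.

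The 120 names of Piwi-interacting RNAs were left out of the main fit. All other names entered a fit in edgeR 4.0.16 under R 4.3.3 (TMM scaling, filterByExpr by group, robust quasi-likelihood test, all 12 libraries by group, Benjamini-Hochberg over 628 names, called at 0.05). The fit was tested on simulated data with 200 changed names, at changes larger than those of the members and with no pairing between libraries. That test therefore does not bear on small differences or on the pairing. SE is the standard error of a log2 fold change. Ratios had 0.5 counts added to each side and were tested by exact permutation with SciPy 1.17.1. Replicate numbers pair the libraries: deviations from group means correlated at r = 0.36 to 0.57 for the 12 same-number pairs and -0.41 to 0.14 for the 36 others, against a limit of 0.1. The labels do not say what a number stands for. Alternatives were the block, other scalings, DESeq2 1.42.0, no filter, piRNA names included, 8 libraries, and leaving out libraries. Of the listed markers, 1 blood miRNA has no name in the tables used here.

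Named were the members, miRNAs sharing the 5p seed, 12 locus neighbours, and the 3 miRNAs most like each 5p strand. The members and lists were chosen with earlier results of these data known.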

Additional observations from a re-analysis of the deposited data

How the results depend on the processing

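The higher level of miR-125a-5p and miR-125b-5p in shStau2 kept its direction under all 30 settings tried in both comparisons with shStau2, at log2 fold changes of 0.26 to 0.37 and 0.18 to 0.29 against shNTC and of 0.21 to 0.31 and 0.17 to 0.27 against shPum2. All settings reuse libraries whose values led to the choice of the family. The kept direction is therefore a description and is not read as support. Whether members were called did depend on the setting. In shStau2 against shNTC, 0 members were called by group alone, 2 with the replicate block, 1 with upper-quartile factors, 1 with DESeq2 and 2 with DESeq2 and the replicate block. Leaving out single libraries gave 0 members throughout, and leaving out a replicate number from the replicate block gave 0 to 2. In shStau2 against shPum2 the counts were 0 by group alone, 2 with the replicate block, 1 with DESeq2 and the replicate block, and 0 to 2 when a replicate number was left out of the replicate block. Scalings within the replicate block, added after seeing the data (library totals, scaling without the members, upper-quartile factors), gave 2 members in each of the 2 comparisons with shStau2, and 0 in shPum2 against shNTC.

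Over all miRNAs, shStau2 against shNTC gave 2 calls, 39 with the replicate block, 17 with DESeq2, 35 with DESeq2 and the replicate block, 39, 40 and 38 with library totals, scaling without the members and upper-quartile factors in the replicate block, 1 to 3 when a library was left out, and 23, 23, 27 and 5 without replicate number 1, 2, 3 and 4 in the replicate block. The 1 call came without shStau2 replicate 3. For shPum2 against shNTC the counts were 0, then 1 with the replicate block and with each of its 3 scalings, 2 with DESeq2 and the replicate block, and 0 to 2 without a replicate number. For shStau2 against shPum2 they were 3, 25 with the replicate block, 0 with upper-quartile factors, 7 with DESeq2, 31 with DESeq2 and the replicate block, 0 in a fit of the 8 libraries, 26, 26 and 40 with the 3 scalings in the replicate block, 0 to 4 when a library was left out and 6, 51, 7 and 10 without replicate number 1, 2, 3 and 4 in the replicate block. The cause was not tested.

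Signs near 0 turned. In shStau2 against shNTC the log2 fold change of miR-125b-1-3p was -0.026 with library totals and -0.024 with these in the replicate block. It ranged from -0.058 to 0.12 with a library left out and was -0.065 in the replicate block without number 4. In shStau2 against shPum2 it was -0.037 with library totals and -0.034 with these in the replicate block, ranged from -0.024 to 0.081 with a library left out, and was -0.055 in the replicate block without number 3. In shPum2 against shNTC it was -0.013 with upper-quartile factors and -0.011 with these in the replicate block, ranged from -0.083 to 0.098 with a library left out, and was -0.0054 and -0.13 in the replicate block without number 2 and 4. There miR-125b-5p was at -0.0080 and -0.0085 with upper-quartile factors without and with the replicate block, at -0.026 to 0.057 with a library left out, and at -0.035 in the replicate block without number 2. For miR-125b-2-3p the values were -0.073 to 0.053 with a library left out, and 0.046 and 0.047 in the replicate block without number 1 and 3. With a library left out, log2 ratios in shPum2 against shNTC ranged from -0.093 to 0.031 for miR-125b-5p to miR-125a-5p, from -0.086 to 0.11 for miR-125b-5p to its 3p strands and from -0.11 to 0.015 for miR-125b-2-3p to miR-125b-1-3p, with exact permutation p of 0.343 to 1. Depth limits miR-125a-3p most, at 347 to 542 counts.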
